A study of Mus musculus with 2 samples.

Results

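*Chodl* and *Sema3a* fibroblasts were 831 of the 9967 cells kept from 2 single-cell RNA-seq libraries of amputated neonate mouse digits, 327 in the BSA library and 504 in the FGF8 library. The cells came from hindlimb digits of ICR mice, male and female pooled, that were amputated through the middle phalanx (P2) at postnatal day 3. A microcarrier bead carrying 500 ng/µl FGF8, or 0.1% BSA as the control, was placed in the wound at postnatal day 7, and collection followed 24 h after the bead, at postnatal day 8. Each library was 1 pool of 20 digits from 5 mice, so amputation and bead were common to both groups and the protein on the bead was what the labels say differed. With 1 library per condition there is no replicate check, no p-value was computed, and the effect of FGF8 cannot be told apart from differences between pools, dissections or libraries. Intervals below are 95% intervals that cover counting error only, since UMIs of a cell are not independent.

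Members were chosen by measured UMIs, where a UMI (unique molecular identifier) marks 1 captured transcript. A member had more than 200 and fewer than 7500 detected genes, under 15% mitochondrial UMIs, at least 1 UMI of *Pdgfra* (the PDGF receptor alpha of mesenchymal cells), and a UMI of at least 4 of the 8 genes *Chodl*, *Sema3a*, *Tmtc2*, *Zfp385b*, *Cadps*, *Zfp536*, *Cdh6* and *Tmem132c*. It also had fewer than 10 UMIs of *Prg4* (lubricin, the lubricant of the joint surface) and no UMI of *Tnmd* (tenomodulin, a tendon and ligament gene). The values of these 11 genes in members are therefore a description of the choice. Levels are UMI counts per 1000000 UMIs summed over cells (CPM). They compare cells for a given gene and not genes with each other.

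Fibroblasts make the collagens and proteoglycans of connective tissue, and those of the distal limb also keep signals that pattern skin, nail, tendon and skeleton. *Sema3a* encodes a secreted semaphorin, a guidance cue that repels growing axons and acts on cells through neuropilin and plexin receptors. *Chodl* encodes a C-type lectin-domain membrane protein, *Cadps* a priming factor for the release of dense-core vesicles, *Cdh6* a cadherin that binds like cells to each other, *Tmtc2* a protein of the endoplasmic reticulum, and *Zfp385b* and *Zfp536* zinc-finger proteins. Canonical Wnt signals act through beta-catenin and Tcf/Lef factors and induce their own inhibitors, such as *Axin2*, *Nkd1*, *Nkd2* and *Apcdd1*, which are read as a sign of pathway activity.

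The 250 bases that precede the transcription start are shown for *Chodl* and *Sema3a*, which give the cells their name, and for *Edn3*, a secreted ligand outside the rule that was among the leading genes. The sequences are from RefSeq on build GRCm38.p6, plus strand, 5′ to 3′, at chr16:78930698-78930947 for *Chodl*, chr5:13396534-13396783 for *Sema3a* and chr2:174760369-174760618 for *Edn3*. Capitals mark the Tcf/Lef core CTTTGA read on either strand (TCAAAG on the other), which lay 138 bases before the start in *Chodl* and 236 bases before it in *Edn3*.
Chodl: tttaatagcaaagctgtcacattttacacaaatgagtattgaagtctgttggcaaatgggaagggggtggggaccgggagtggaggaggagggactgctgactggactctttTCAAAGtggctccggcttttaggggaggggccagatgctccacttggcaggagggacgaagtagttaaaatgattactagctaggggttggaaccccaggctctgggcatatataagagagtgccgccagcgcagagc
Sema3a: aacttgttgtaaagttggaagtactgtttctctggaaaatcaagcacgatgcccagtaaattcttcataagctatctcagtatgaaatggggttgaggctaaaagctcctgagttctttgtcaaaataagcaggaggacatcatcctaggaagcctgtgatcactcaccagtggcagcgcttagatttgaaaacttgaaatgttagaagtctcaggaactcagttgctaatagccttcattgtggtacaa
Edn3: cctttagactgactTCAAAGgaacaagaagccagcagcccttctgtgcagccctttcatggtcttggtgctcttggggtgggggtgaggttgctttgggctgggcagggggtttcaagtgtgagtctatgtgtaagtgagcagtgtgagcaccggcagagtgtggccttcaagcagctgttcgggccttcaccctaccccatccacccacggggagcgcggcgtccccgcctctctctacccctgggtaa
These 6 letters were found in 5257 of all 32851 mouse promoters of 300 bases (250 before and 50 after the start), that is 16.0%, and in 7 of the 32 promoters (21.9%) held for 26 of 32 genes looked for, the 8 of the rule and the 24 leading genes described below. A match is a description and not a bound site.

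Among the *Pdgfra*+ cells within the *Prg4* and *Tnmd* limits, the number of rule genes with a UMI was spread over the whole range. In the BSA library, 151, 247, 168 and 99 cells had 0, 1, 2 and 3 of the 8 genes, and 59, 59, 61, 96 and 52 members had 4, 5, 6, 7 and 8. In the FGF8 library the corresponding numbers were 401, 480, 329 and 217 cells, and 139, 91, 100, 108 and 66 members. The BSA distribution thus had a second rise at 7 genes (96 cells), and in the FGF8 library the members with 4 genes (139) were the most frequent class. Just outside the rule stood the 99 and 217 cells with 3 genes, the 47 and 71 cells that met the rest of the rule with 1 *Tnmd* UMI, and 1 cell in each library with 10 *Prg4* UMIs, opposite 1 member in each with 9. In total 213 and 236 cells were left out through *Tnmd* and 4 and 10 through *Prg4*.

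**Figure D1:**
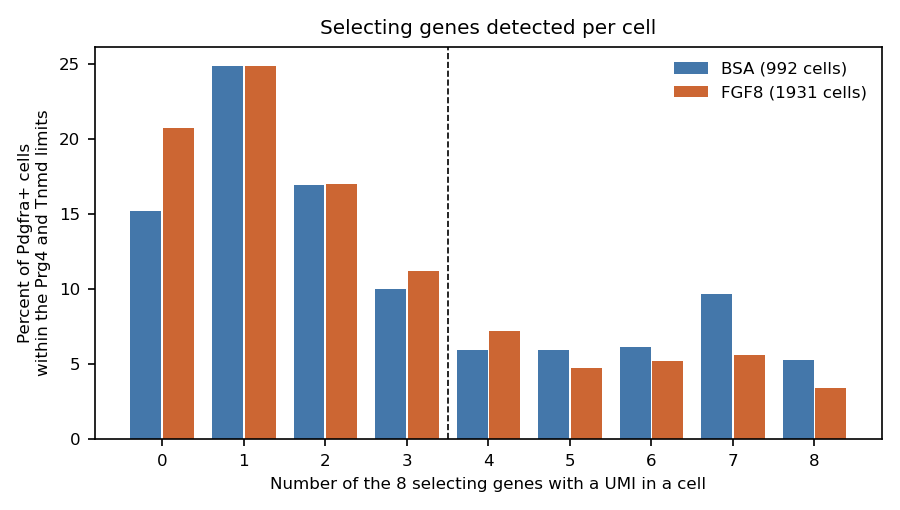
Percent of the *Pdgfra*+ cells within the *Prg4* and *Tnmd* limits (y axis) by the number of the 8 selecting genes with at least 1 UMI (x axis), for 992 BSA and 1931 FGF8 cells. Cells with 4 or more genes are the members, and the BSA bars are higher again at 7 genes (9.68%) than at 4 genes (5.95%), whereas the FGF8 bars are at 5.59% and 7.2%.

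The members were well covered. Their median was 19207 UMIs and 4992 genes in the BSA library and 14742.5 UMIs and 4379 genes in the FGF8 library, against 22143 and 18112 UMIs in the 665 and 1427 other *Pdgfra*+ cells, which met the same filter and the same *Prg4* and *Tnmd* limits with fewer than 4 rule genes. In all, the members held 6658749 and 8344500 UMIs. The 2 libraries shared 6 cell barcodes, and none of these was a member. Sex differed between the pools: of the members with UMIs either of *Xist* alone or of Y-linked genes alone, 77.4% were female-called in BSA (229 female, 67 male) and 24.9% in FGF8 (107 female, 323 male), so ratios between the libraries are also given within each sex.

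The fibroblast part of the name held in both libraries. *Col1a1*, *Col1a2* and *Col3a1*, the chains of the main fibrillar collagens, were found in 100% of members, and the proteoglycan *Lum* in 99.4% (BSA) and 97.4% (FGF8). *Dcn* (decorin) was found in 97.9% and 96.0%, *Fbn1* (fibrillin of elastic microfibrils) in 98.8% and 97.2%, and *Dpt* (dermatopontin) in 93.3% and 88.7%. All 10 fibroblast markers were seen. Of the genes that name the cells, *Sema3a* was found in 91.1% and 92.1% of members and *Chodl* in 64.5% and 58.9%, so that many members carried no *Chodl* UMI. For *Chodl* the share was 1.09% and 1.5% in mural cells, which should lack it and had median depths of 14817.5 and 11257 UMIs, and 9.17% and 6.03% in the other *Pdgfra*+ cells. In endothelial cells (median depths of 11820 and 11475 UMIs) the *Chodl* share was 8.6% and 2.26% and the *Sema3a* share 20.4% and 18%, so both genes also gave UMIs in cells without a *Pdgfra* UMI.

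Markers of other cell types were present at low levels, with higher sums in the FGF8 library. Erythroid genes such as *Hbb-bs* and *Hba-a1* gave at least 1 UMI in 89.9% and 95% of members, and their summed level was 1659 and 2595 CPM against 348589 and 408661 CPM in erythroid cells. A single member held 92.2% of these UMIs in BSA and 51.1% in FGF8. The summed level of the macrophage list was 21.2 and 75.1 CPM (5340 and 5046 in macrophages), that of the neutrophil list 18 and 116 CPM, that of the keratinocyte list 46.3 and 178 CPM, and that of the chondrocyte list 103 and 190 CPM. These 5 sums were all higher in FGF8 members. The share with any marker was 13.1% and 19.05% for the macrophage list and 11.9% and 18.1% for the neutrophil list. It was 56.6% and 55.95% for the keratinocyte list and lower in FGF8, at 55.4% and 45.4%, for the chondrocyte list. The highest member held 37.6% and 42.7% of macrophage UMIs and 66.7% and 20.02% of neutrophil UMIs. For keratinocyte UMIs this was 1.95% and 27.3%, and for chondrocyte UMIs 31.4% and 29.05%. Mural markers summed to 76.4 and 147 CPM, tenocyte markers, without *Tnmd* by the rule, to 187 and 281 CPM, and osteoblast markers to 7.21 and 89.0 CPM, of which 1 member held 78.3% in FGF8. Mast cell, endothelial and skeletal muscle markers each stayed at or below 22.5 CPM, and 1 of 4 skeletal muscle markers was seen in BSA members and 2 in FGF8 members. At least 2 markers of some other type were present in 186 BSA members (56.9%) and 353 FGF8 members (70.0%). In this count, here and below, the chondrocyte, osteoblast and tenocyte lists were left out. Of these members, 162 and 316 held 2 or more erythroid markers. *Hbb-bs* gave a UMI in 71.6% and 82.5% of members and in 68.5% and 80.1% of mural cells. Members with at least 5% of the marker level of another type's own cells, as a droplet holding cells of 2 types would have, numbered 16 (4.89%) and 49 (9.72%). There the same lists and skeletal muscle were left out. No doublet caller was run and these cells were kept, with values lacking them given where they matter.

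The 8 selecting genes were, by construction, far higher in members than in the other *Pdgfra*+ cells. *Chodl* stood at 476 CPM in BSA members and 383 CPM in FGF8 members, against 10.4 and 6.82 CPM in the other cells. *Sema3a* stood at 754 and 669 CPM against 22.0 and 34 CPM, and *Tmtc2* at 1271 and 991 CPM against 92.7 and 89.0 CPM. The levels of all 3 were thus alike in the 2 libraries beside the distance to the other cells. *Zfp385b* (309 and 235 CPM), *Tmem132c* (334 and 268 CPM), *Zfp536* (171 and 132 CPM) and *Cdh6* (118 and 87.1 CPM) were lower in FGF8 members, and *Cadps* was 137 and 151 CPM. Across the 8 genes the log2 ratio of FGF8 over BSA lay between -0.43 and 0.15. *Cadps* was the least frequent of them, with a UMI in 39.1% and 41.1% of members, and *Tmtc2* the most frequent, in 99.1% and 98.2%.

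The selecting genes were correlated within the members to unequal degrees. At 5000 UMIs per cell, the Spearman correlation over the 315 BSA members was 0.66 for *Sema3a* with *Tmtc2*, 0.43 for *Chodl* with *Sema3a* and 0.06 for *Cadps* with *Cdh6*. These are descriptions over cells of 1 library that were chosen on the same genes. *Sema3a* and *Tmtc2* were the most, and *Cadps* and *Cdh6* the least, correlated pair in that library.

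Outside the rule, *Rspo4*, *Slc44a5* and *Fgfr4* had the highest ratios of members over other *Pdgfra*+ cells. Of 16176 genes measured in both libraries, 757 (4.68%) were more than 2-fold higher in members in both libraries and 824 (5.09%) more than 2-fold lower, with a median log2 ratio of 0.03 in BSA and 0.05 in FGF8. The cells were chosen on genes measured in the same libraries, so these ratios are descriptions with no test. Counts of list genes higher or lower in members, given below, are to be read beside these shares of 4.68% and 5.09%. Each ratio was recomputed at equal depth, with stricter cell filters, with other cuts of the rule and without members that held markers of other cell types. The 24 genes named as highest stayed more than 2-fold higher in both libraries in all 9 alternatives. They were chosen as the highest by this ratio in the same cells, so this is a weak check. Of the 9, the minimum of 100 UMIs per gene leaves each ratio unchanged.

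*Rspo4*, an R-spondin that amplifies Wnt signals and is required for nails, had the largest ratio. It stood at 26.0 CPM in BSA members against 0.41 CPM in the other *Pdgfra*+ cells (log2 ratio 6.0, interval 4.85 to 7.47), and at 24.9 against 0.67 CPM in the FGF8 library (5.21, 4.54 to 5.98). It was found in 30.9% and 24.6% of members and in 0.54% and 0.37% of mural cells. Its chromosomal position is chr2:151684708-151716605 on GRCm39.

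Further Wnt genes were among the 24. *Apcdd1*, a membrane inhibitor of Wnt ligands, was at 200 CPM against 15 in BSA and 195 against 22.7 in FGF8 (log2 3.74 and 3.10). *Nkd2*, which binds Dishevelled and dampens the pathway, was at 131 against 12.7 CPM and 113 against 14.3 CPM (3.37 and 2.98). The ligand *Wnt10a* reached 16.8 against 1.42 CPM and 11.1 against 1.13 CPM (3.56 and 3.30). All 3 therefore differed by more in each library than they did between libraries. *Apcdd1* was not restricted to the members, since 49.5% and 48.3% of mural cells and 26.9% and 30.1% of endothelial cells also held a UMI.

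In the list of Wnt antagonists, R-spondins and feedback genes, 9 of 26 measured genes were more than 2-fold higher in members in both libraries, against 4.68% of all genes, and 4 were lower. The higher genes were *Dkk2* (560 against 105 CPM in BSA, 394 against 90.9 in FGF8), *Wif1*, *Apcdd1*, *Rspo1*, *Rspo3*, *Rspo4*, *Axin2*, *Nkd1* and *Nkd2*. *Axin2*, a component of the beta-catenin destruction complex and a target of the pathway, was at 83.2 against 14.7 CPM and 57.0 against 12 CPM. The lower genes were *Sfrp1*, a secreted Wnt inhibitor (14.1 against 48.2 CPM and 26.0 against 71.6 CPM), *Notum*, *Rspo2* and *Lgr6*. The list median was 0.66 in BSA and 0.54 in FGF8. Inhibitors and enhancers of the pathway were thus on both sides, and *Lef1*, a nuclear effector, was alike in members and other cells (9.16 and 9.0 CPM in BSA, log2 0.03, and 0.44 in FGF8).

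Among the 12 Wnt ligands measured, 4 were higher and 2 lower. *Wnt5a*, the ligand of distal limb outgrowth, was at 532 against 116 CPM in BSA and 539 against 142 CPM in FGF8, *Wnt11* at 62.9 against 14.3 CPM and 37.1 against 10.4 CPM, and *Wnt6* was 1.26 and 1.24 higher on the log2 scale. *Wnt10b* and *Wnt7b* were the lower ones.

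Ligands and receptors of other pathways were among the 24 as well. *Edn3*, an endothelin that acts on melanocyte precursors through the receptor *Ednrb*, was at 74.0 against 5.01 CPM in BSA and 56.9 against 3.71 CPM in FGF8 (log2 3.89 and 3.94). Its share was 61.2% and 44.8% of members and 1.08% and 0.75% of endothelial cells. *Apela*, a peptide ligand of the apelin receptor, was at 72.1 against 8.53 CPM and 49.5 against 5.16 CPM. *Ramp1*, part of the receptor for calcitonin gene-related peptide, was found in 72.2% and 54.2% of members and in 15.5% and 12.8% of the other cells.

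*Fgfr4*, a receptor for fibroblast growth factors, was at 55.4 against 2.37 CPM in BSA and 29.7 against 1.45 CPM in FGF8 (log2 4.55 and 4.36). Of 5 FGF receptor genes measured, only *Fgfr4* passed 2-fold in both libraries. *Fgfr1* was 0.69 and 0.72 higher and *Fgfr2* 0.58 and 0.62 higher on the log2 scale, and *Fgfrl1*, which lacks the kinase domain, had ratios of -0.80 and -0.42. Of the 14 FGF ligands, *Fgf2*, *Fgf10* and *Fgf11* were higher and *Fgf12* was lower. *Fgf10* stood at 44.6 against 16.5 CPM and 49.8 against 20.6 CPM.

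The other leading genes ranged from transcription regulators to transporters. *Ahrr*, the repressor of the aryl hydrocarbon receptor, had log2 ratios of 3.77 and 3.85. *Tnfrsf19*, a receptor of the TNF family, was at 103 against 6.36 CPM and 83.5 against 5.72 CPM. *Slc44a5* (a choline transporter-like protein), *Slc1a2* (a glutamate transporter), *Nkain3*, *Cntn4* (a contactin of neuronal adhesion), *Adarb2* (of the RNA editing enzyme family), *Rgs6* (a regulator of G protein signals) and *Kcnn2* (a calcium-activated potassium channel) had ratios between 3.05 and 4.95 in BSA and between 3.14 and 4.66 in FGF8. Enzymes of sugar chains were also among them, *Hs3st6* for heparan sulfate (3.28 and 3.60) and *St6galnac3* for sialic acid (3.13 and 2.98), as were *Thsd4*, a fibrillin-binding matrix protein (3.21 and 3.33), *Ccdc42* and the long non-coding RNA *6530403H02Rik*. *Tmem132cos* (3.44 and 4.39) lies on the minus strand at chr5:127331083-127358727 (GRCm39), inside the selecting gene *Tmem132c* on the plus strand, so its reads are not fully independent of the rule.

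**Figure D2:**
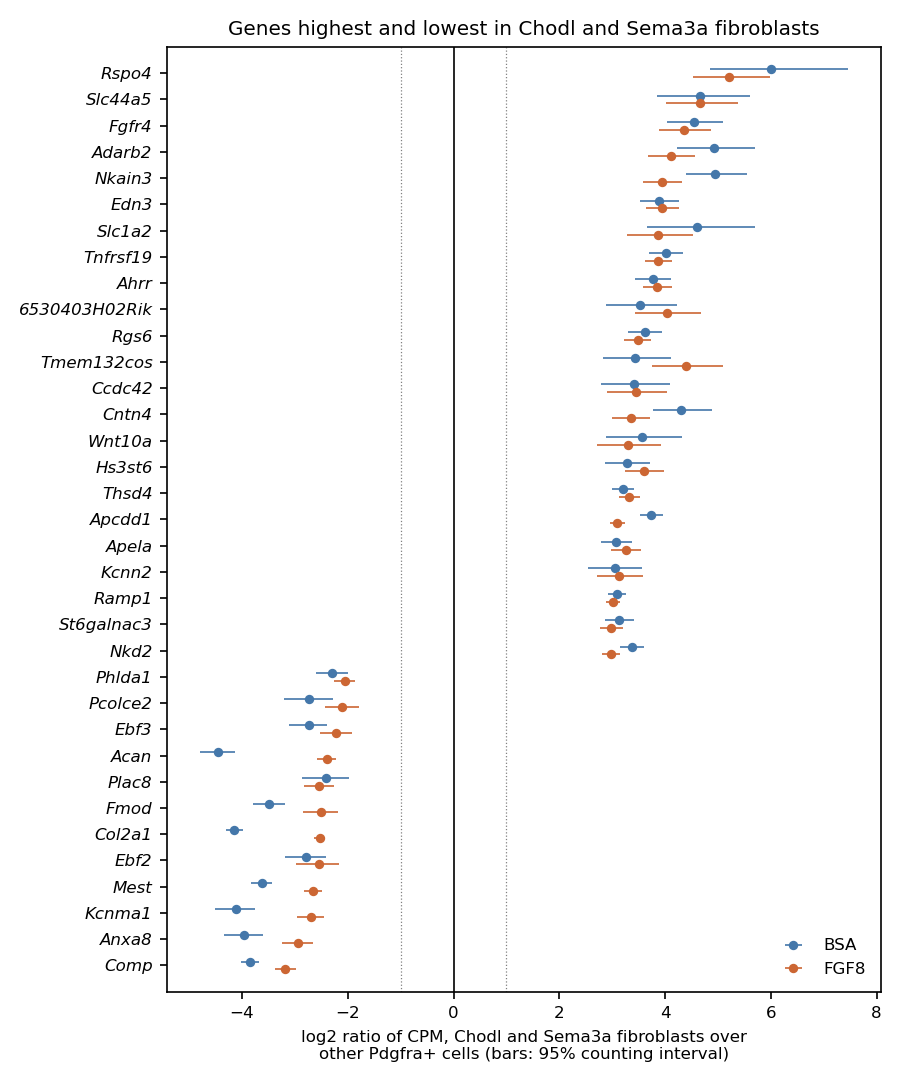
Log2 ratio of CPM in members over the other *Pdgfra*+ cells (x axis) for 23 of the 24 highest and the 12 lowest genes outside the rule (y axis), in the BSA and the FGF8 library, with 95% counting intervals as bars. Both libraries lie on the same side of 0 for each gene, from *Rspo4* at the top (6.0 and 5.21) to *Comp* at the bottom (-3.85 and -3.18).

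*Comp*, *Anxa8* and *Kcnma1* had the lowest ratios, and the 12 genes named on this side also held matrix genes of cartilage and tendon. *Comp*, a pentameric matrix protein of cartilage and tendon, was at 40.2 CPM in BSA members against 579 CPM in the other cells, and at 26.5 against 240 CPM in the FGF8 library (log2 -3.85 and -3.18). *Acan* (aggrecan) was at 11.7 against 258 CPM and 32.7 against 173 CPM, and *Fmod* (fibromodulin) at 13.7 against 153 CPM and 10.1 against 57.4 CPM. *Mest*, an imprinted gene, was at 33.6 against 417 CPM and 36.8 against 231 CPM. *Kcnma1*, a large-conductance potassium channel, the factors *Ebf2* and *Ebf3*, *Anxa8*, *Plac8*, *Pcolce2* (an enhancer of procollagen processing) and *Phlda1* were also lower, by log2 ratios from -4.12 to -2.29 in BSA and from -2.95 to -2.05 in FGF8. *Col2a1*, the cartilage collagen, differed in level (45.7 against 807 CPM, 106 against 615 CPM) and not in frequency, since 30.6% and 22.2% of members and 29.9% and 23.1% of the other cells had a UMI, as did 20.1% and 19.1% of mural cells.

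Axon guidance genes other than *Sema3a* were frequent among the higher genes. Of 17 slits, netrins and their receptors, 7 were more than 2-fold higher in both libraries, against 4.68% of all genes. These were *Slit2*, *Robo1*, *Robo2*, *Ntn1*, *Ntn3*, *Unc5c* and *Unc5d*, and 1, *Robo4*, was lower. The list median was 0.99 in BSA and 0.92 in FGF8. *Robo2*, a receptor for slits, was at 753 against 188 CPM and 648 against 142 CPM. *Ntn1* (netrin 1) was at 231 against 75.6 CPM and 172 against 55.3 CPM. The members thus carried ligands and receptors of the same guidance families.

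Of 29 semaphorins, plexins and neuropilins, 6 were higher (*Sema3b*, *Sema3d*, *Sema3f*, *Sema5a*, *Sema6c* and *Plxna4*) and 1 lower (*Sema7a*), with medians of 0.22 and 0.18. *Sema5a* stood at 336 against 55.6 CPM and 356 against 60.9 CPM, and *Plxna4*, a receptor chain for class 3 semaphorins, at 73.4 against 10.8 CPM and 58.0 against 10.7 CPM. *Sema3c*, a ligand of the same class as *Sema3a*, was not among them (113 against 136 CPM, 56.6 against 71.1 CPM). Among 19 ephrins and Eph receptors, *Efna5*, *Efnb2*, *Efnb3* and *Epha7* were higher and *Epha2* and *Epha3* lower. *Efna5*, a membrane-anchored ephrin, was at 716 against 171 CPM and 619 against 152 CPM.

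Dense-core vesicle and synaptic genes were higher in part. In this list, 13 of 34 were higher and 0 lower at 2-fold in both libraries, against 4.68% of all genes higher. The medians were 0.91 and 1.12. The higher genes were *Scg5*, *Pcsk2*, *Nrxn3*, *Cntn3*, *Cntn4*, *Cntn5*, *Cntn6*, *Lsamp*, *Opcml*, *Negr1*, *Tenm2*, *Lrrtm3* and *Lrfn5*. *Lsamp*, an adhesion protein of limbic neurons, was at 676 against 108 CPM and 598 against 66.8 CPM, and *Nrxn3* (neurexin 3) at 12.8 against 1.15 CPM and 11.7 against 0.99 CPM. Of 12 neurotrophic and glial ligands, *Ntf3*, *Gdnf*, *Artn* and *Nrtn* were higher and none was lower. *Ntf3* (neurotrophin 3) stood at 21.9 against 4.81 CPM and 17.9 against 5.55 CPM, and *Nrtn* (neurturin) at 25.2 against 5.96 CPM and 23.6 against 7.14 CPM. Markers of Schwann cells summed to 11.6 and 21.7 CPM in members and 14.8 and 43.1 CPM in the other *Pdgfra*+ cells, against 5176 and 4138 CPM in Schwann cells.

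Among BMP and activin ligands, 5 of 20 were higher (*Bmp3*, *Bmp4*, *Bmp7*, *Inhbb* and *Mstn*) and 3 lower (*Bmp5*, *Bmp8a* and *Gdf15*). *Bmp4* was at 125 against 29.9 CPM and 104 against 23.8 CPM. The BMP antagonist *Grem1* (78.8 against 7.17 CPM, 69.9 against 12.6 CPM) and the activin-binding *Fstl3* were higher, while *Chrdl1* and *Bambi* were lower, of 19 measured. Ligands and antagonists of the BMP family were thus both higher in the same cells.

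The transcription factor list split almost evenly. Of 66 limb, digit and mesenchyme factors, 16 were higher and 14 lower. The higher ones included the dorsal factor *Lmx1b* (32.0 against 9.95 CPM, 21.9 against 7.77 CPM), the ventral factor *En1* (40.2 against 12 CPM, 26.6 against 8.76 CPM), *Twist2*, *Irx5* and *Foxd1* (81.6 against 11.4 CPM, 57.9 against 9.93 CPM). *Msx1*, a factor of the digit tip and nail bed, was lower (13.4 against 87.5 CPM, 17.9 against 71.1 CPM), as were *Pitx1* and *Dlx5*. The autopod gene *Hoxd13* did not separate the cells (45.7 against 46.5 CPM, 50.5 against 36.6 CPM).

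Genes described in dermal and resting fibroblasts were partly higher, 10 of 30, with 3 lower (*Mest*, *Gpx3* and *Has1*). *Crabp1*, a retinoic acid-binding protein of upper dermis, was at 980 against 180 CPM in BSA and 1627 against 645 CPM in FGF8, and *Cyp26b1*, which degrades retinoic acid, at 192 against 31.7 CPM and 268 against 71.3 CPM. *Col23a1* (187 against 25.3 CPM, 189 against 39.9 CPM), *Col13a1* and *Corin* were higher as well. Of 25 fibrillar and associated collagens, *Col3a1*, *Col8a1*, *Col14a1*, *Col25a1* and *Col26a1* were higher and *Col2a1*, *Col11a1*, *Col11a2* and *Col22a1* lower.

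Inflammatory and early-response genes were in part lower in members than in the other *Pdgfra*+ cells. Of 37 chemokines and interleukins, 15 were more than 2-fold lower in both libraries, against 5.09% of all genes. In this list 1, *Cxcl15*, was higher, and the medians were -1.14 and -1.06. *Cxcl1*, which attracts neutrophils, was at 29.3 against 245 CPM in BSA and 146 against 486 CPM in FGF8. Of 27 immediate early and dissociation genes, 8 were lower and 0 higher (medians -1.36 and -0.78), and of 25 glycolysis and hypoxia genes 7 were lower and 0 higher (medians -0.93 and -0.83). *Hk2*, the hexokinase of active glycolysis, was at 5.26 against 35.4 CPM and 14.4 against 49.5 CPM.

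For most leading genes, cells with *Tnmd* lay between the members and the other *Pdgfra*+ cells. In the 506 BSA and 699 FGF8 cells with *Tnmd*, *Chodl* stood at 76.8 and 53.0 CPM, *Sema3a* at 238 and 195 CPM and *Rspo4* at 10.0 and 7.15 CPM, between the levels of members and of the other *Pdgfra*+ cells. *Edn3* (25.2 and 16.5 CPM) and *Apcdd1* (87.4 and 74.9 CPM) took the same place. Of the *Tnmd*+ cells, 213 in BSA and 236 in FGF8 held 4 or more selecting genes. These levels thus pool cells with and without that many selecting genes. In the 79 and 528 Prg4-high cells, *Chodl* was at 8.01 and 0.99 CPM and *Edn3* at 2.67 and 0.55 CPM, and in the 110 and 247 cells with both *Dlk1* and *Lpl*, *Chodl* was at 7.75 and 6.37 CPM. *Ramp1* and *St6galnac3* came near to the member level in *Tnmd*+ cells, at 149 and 107 CPM and at 70.0 and 47.9 CPM, against 217 and 187 CPM and 86.2 and 67.8 CPM in members, and *Kcnn2* in FGF8 was as high in them (20.3 CPM) as in members (19.9 CPM). These gates are themselves cut on measured genes and are not cell types.

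**Figure D3:**
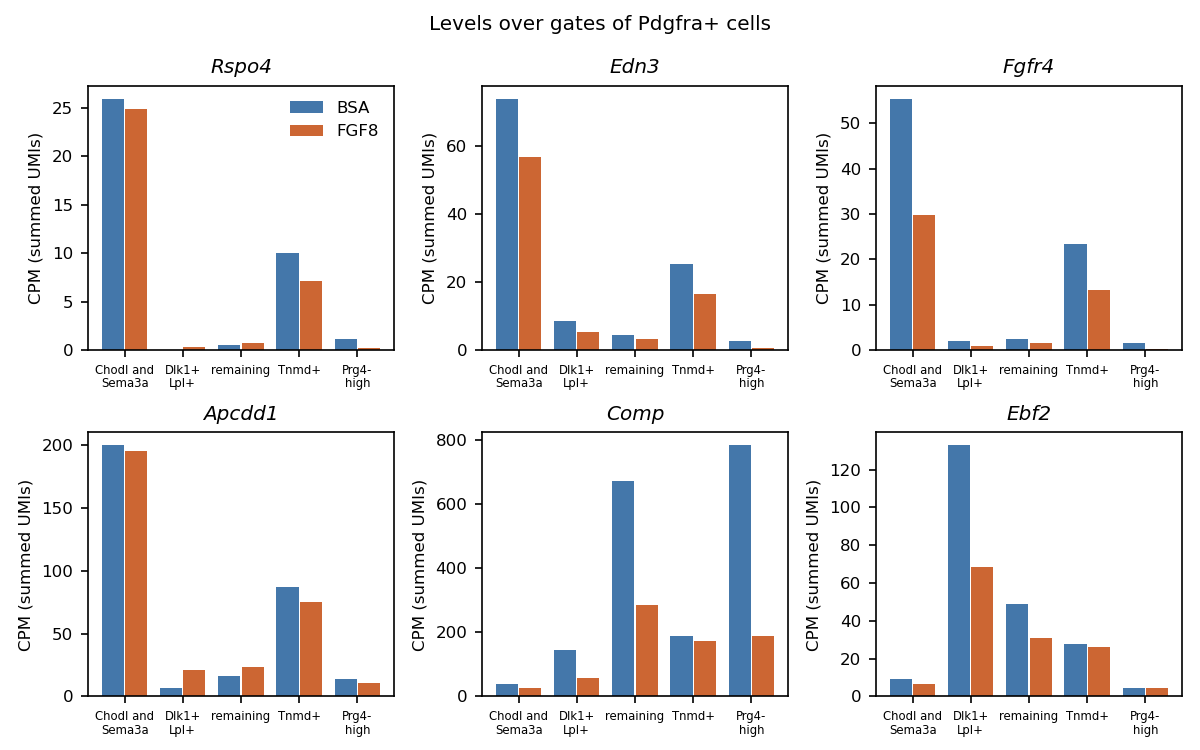
Levels (CPM, from summed UMIs) of *Rspo4*, *Edn3*, *Fgfr4*, *Apcdd1*, *Comp* and *Ebf2* in members, cells with both *Dlk1* and *Lpl*, remaining *Pdgfra*+ cells, *Tnmd*+ cells and Prg4-high cells, for the BSA and the FGF8 library. *Tnmd*+ cells lie between members and the remaining cells for the first 4 genes, as for *Edn3* at 25.2 and 16.5 CPM against 74.0 and 56.9 CPM in members, while *Ebf2* is highest in the cells with *Dlk1* and *Lpl* (133 and 68.3 CPM). Of the 506 and 699 *Tnmd*+ cells, 213 and 236 held 4 or more selecting genes.

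Most leading genes were more frequent the more selecting genes a cell held. In cells thinned to 5000 UMIs, all 24 were more frequent in cells with 4 to 5 selecting genes than with 2 to 3, and with 6 to 8 than with 4 to 5, in both libraries. Between 0 to 1 and 2 to 3 genes, below the limit, 21 of 24 were more frequent in BSA (not *Nkain3*, *Slc1a2* and *Wnt10a*) and 23 in FGF8 (not *Slc1a2*). *Apcdd1* had a UMI in 4.37%, 10.3%, 29.4% and 64.6% of BSA cells with 0 to 1, 2 to 3, 4 to 5 and 6 to 8 selecting genes, and in 7.48%, 14.3%, 32.4% and 68.7% of FGF8 cells. *Edn3* went from 1.46% to 35.9% in BSA and from 1.15% to 35.1% in FGF8, and *Tnfrsf19* from 0.58% to 44.2% and from 1.44% to 45.6%. The 24 genes were chosen in these same cells as highest with 4 or more selecting genes over fewer. The rise across that limit therefore largely follows from the choice. Cells with 4 to 5 genes were intermediate in these 24 genes, which is a description. The classes held 343, 243, 109 and 206 BSA cells and 695, 502, 207 and 259 FGF8 cells.

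On the opposite side, *Comp* went from 51.9% to 5.34% of cells in BSA and from 30.1% to 4.63% in FGF8, and *Mest* from 55.4% to 7.77% and from 44.9% to 6.18%. *Dlk1*, an imprinted gene of fat and connective tissue precursors, did not follow a straight line: its share was 23.9%, 31.7%, 36.7% and 6.31% in BSA and 26.5%, 34.5%, 26.1% and 6.56% in FGF8, so that members with 4 to 5 and with 6 to 8 selecting genes differed in it by more than their intervals. *Clec3b* (tetranectin) was likewise at 56.0% and 22.8% of the 2 member classes in BSA and 33.3% and 15.8% in FGF8. The members were therefore not uniform. Those near the limit resembled the other *Pdgfra*+ cells in *Dlk1* and *Clec3b*, and not in *Comp*. The *Comp* share with 2 to 3 and 4 to 5 selecting genes was 27.6% and 8.26% in BSA, 17.9% and 4.83% in FGF8.

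Members made up a smaller share of *Pdgfra*+ cells in the FGF8 library. They were 20.7% (18.8 to 22.8%) of 1577 *Pdgfra*+ cells in BSA and 16.0% (14.7 to 17.3%) of 3158 in FGF8. At 5000 UMIs per cell the shares were 22.8% and 15.1%, among female-called cells 20.8% and 16.9%, and among male-called cells 23.8% and 16.0%. The FGF8 share was the lower one in each of these, with overlapping intervals among female-called cells (18.4 to 23.3% and 14.0 to 19.99%). Prg4-high cells were 5.01% of *Pdgfra*+ cells in BSA and 16.7% in FGF8, so the denominators of these shares differ in make-up as well.

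Within the members, 1052 of 15356 measured genes (6.85%) were more than 2-fold higher in FGF8 than in BSA and 418 (2.72%) more than 2-fold lower, and the median log2 ratio was 0.01. Counts of list genes higher or lower in FGF8, given below, are to be read beside these shares. The 15 genes named as highest were *Spp1*, *Mmp3*, *Mmp13*, *Cxcl5* and, for the rest, genes of keratinized epithelium, of the cystatin family or of neutrophils, and *Adamts19*, *Htr1f* and *Fgf12* had the lowest ratios. With each cell thinned to 5000 UMIs, the share of FGF8 members with a UMI lay above that of mural cells, with intervals that did not overlap, for 1 of the 15, *Cxcl5*, and not for the other 14.

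*Spp1* (osteopontin) had the highest ratio, and its share did not exceed that of unrelated cells. It went from 43 UMIs (6.46 CPM) in BSA members to 11205 UMIs (1343 CPM) in FGF8 members, a log2 ratio of 7.70 (7.27 to 8.17). The ratio was 9.42 in female-called members (20 and 5287 UMIs) and 4.88 in male-called members (14 and 1502 UMIs). In the other *Pdgfra*+ cells it was 1.47, from 1094 to 3031 CPM. Of the *Spp1* UMIs in FGF8 members, 34.1% were in 1 cell and 79.8% in 5. The ratio in members was 6.24 without the 5 highest. Members with a *Spp1* UMI were 8.87% in BSA and 65.3% in FGF8, and mural cells 6.52% and 66.7%, Schwann cells 8.26% and 63.4%. At 5000 UMIs per cell the FGF8 shares were 31.5% of members, 30.8% of mural cells and 36.0% of Schwann cells. The share in members was thus near that of these other cell types, and the reason was not tested. The summed level was 1343 CPM in FGF8 members, 1058 CPM in endothelial cells, 120 CPM in Schwann cells and 99.9 CPM in mural cells.

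The keratins of hair follicles were concentrated further. Of 3791 *Krt71* UMIs in FGF8 members, 97.7% were in 1 cell, as were 96.5% of 3290 *Krt25* UMIs. Without the 5 members with most UMIs of the gene in each library, their log2 ratios were 2.42 and 2.77 in place of 7.56 and 7.27. The share with a *Krt25* UMI in FGF8 was 15.7% of members and 16.9% of mural cells. *Krt1*, *Krt28*, *Ly6d*, *Perp*, *Calm4*, *Cstdc4*, *Cstdc5* and *Stfa3*, genes of keratinized epithelium or of the cystatin family, and the neutrophil gene *S100a9* had ratios from 3.43 to 6.16, and from 1.26 to 4.39 without the 5 highest members, which held between 66.5% and 95.7% of the FGF8 UMIs. A *Krt1* UMI was found in 18.8% of FGF8 members and 19.1% of mural cells, and an *S100a9* UMI in 9.33% and 9.74%. These genes thus stand with the keratinocyte and neutrophil marker sums, which were 178 and 116 CPM in FGF8 members and 46.3 and 18 CPM in BSA members, and the part of such RNA in them was not tested.

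Among metalloproteinases, *Mmp3* had a high ratio with 36.8% of its FGF8 UMIs in 5 cells, and *Mmp13* a high ratio with 82.6% in 5 cells. *Mmp3* (stromelysin 1) was at 6.46 CPM in BSA members and 254 CPM in FGF8 members, a log2 ratio of 5.30 (4.86 to 5.77). Female-called members gave 5.19 and male-called members 6.67, the latter with 3 BSA UMIs. All without the 5 highest gave 6.26, with 14 BSA UMIs left. It was found in 5.50% and 34.5% of members, and in FGF8 also in 24% of mural cells. At 5000 UMIs the FGF8 shares were 17.6% of members (14.2 to 21.4%) and 12.1% of mural cells (8.24 to 16.9%), with overlapping intervals, while the level in mural cells was 22.7 CPM. *Mmp13* (collagenase 3) went from 6 to 495 UMIs, 39.0% of them in 1 cell, with a log2 ratio of 6.04. Without the 5 highest members the ratio was 6.10 (3.58 to 11.4), with 1 BSA UMI left. The *Mmp13* share was 7.74% of FGF8 members and 6.74% of mural cells. At 5000 UMIs it was 3.86% (2.31 to 6.04%) and 4.58% (2.31 to 8.05%), with overlapping intervals, while the levels were 59.3 and 6.04 CPM. *Mmp10* had 0 and 27 UMIs, 77.8% of them in 5 cells. Its log2 ratio was 2.84 (lower limit 2.45) with the 0 entered at a floor of 3 UMIs, and 0.67 without the 5 highest members, and *Adam8* had 7 and 37 UMIs (2.08, 0.89 to 3.49).

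*Timp1*, an inhibitor of metalloproteinases, was at 142 CPM in BSA members and 589 CPM in FGF8 members. The log2 ratio was 2.05 (1.95 to 2.16), against 2.30 for female-called members, 1.60 for male-called members and 1.19 for the other *Pdgfra*+ cells, and it was 1.15 without members holding 2 or more markers of another cell type. It was found in 67.3% and 78.6% of members and in 69.0% and 77.5% of mural cells, where the level was 176 and 283 CPM. Of the 44 genes of the metalloproteinase and Timp list measured, 6 were more than 2-fold higher, against 6.85% of all genes, and 1 lower. The list median was -0.04. The abundant *Mmp2* (588 and 499 CPM) and *Mmp14* (376 and 336 CPM) were a little lower, at -0.24 and -0.16.

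Chemokines and interleukins were in part higher. Of 34 chemokine and interleukin genes, 16 were more than 2-fold higher in FGF8 members, against 6.85% of all genes, and 2 were lower. The median was 0.76, and 0.62 in the other *Pdgfra*+ cells. Over the same genes it was 0.63 in female-called and 0.92 in male-called members. Over those with at least 10 UMIs within that sex it was 0.51 and 1.01. *Cxcl5*, which attracts neutrophils, was at 32.9 CPM in BSA and 461 CPM in FGF8, a log2 ratio of 3.81 (3.61 to 4.01). At 5000 UMIs it was found in 6.35% and 23.6% of members (3.92 to 9.64% and 19.8 to 27.7%). In FGF8 mural cells it was found in 7.08% (4.18 to 11.1%), so the share in FGF8 members lay above that. *Ccl7* (33.8 and 199 CPM, 2.56), *Cxcl1* (29.3 and 146 CPM, 2.32) and *Ccl2* (49.1 and 170 CPM, 1.79) moved alike, and *Cxcl14* was at 196 and 430 CPM (1.13).

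*Il1rl1*, the receptor of interleukin 33, was at 9.01 CPM in BSA members and 53.7 CPM in FGF8 members, a log2 ratio of 2.57 (2.18 to 2.99). It was 2.17 in the other *Pdgfra*+ cells and 0.92 without the members that held 2 or more markers of another cell type. Among those with a UMI were 4.59% and 15.3% of members and 5.24% of FGF8 mural cells. Among immediate early genes, 7 of 27 were more than 2-fold higher and 0 lower, with a median of 0.55. Among contractile genes it was 5 of 13, with a median of 0.34, against 6.85% of all genes higher. The contractile median was 0.0031 without members holding 2 or more markers of another cell type and 0.071 in members with at least 5 selecting genes. *Acta2* (smooth muscle actin) was at 49.3 and 101 CPM, and the mural marker sum moved with it, from 76.4 to 147 CPM, and the part of mural RNA in this difference was not tested.

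**Figure D4:**
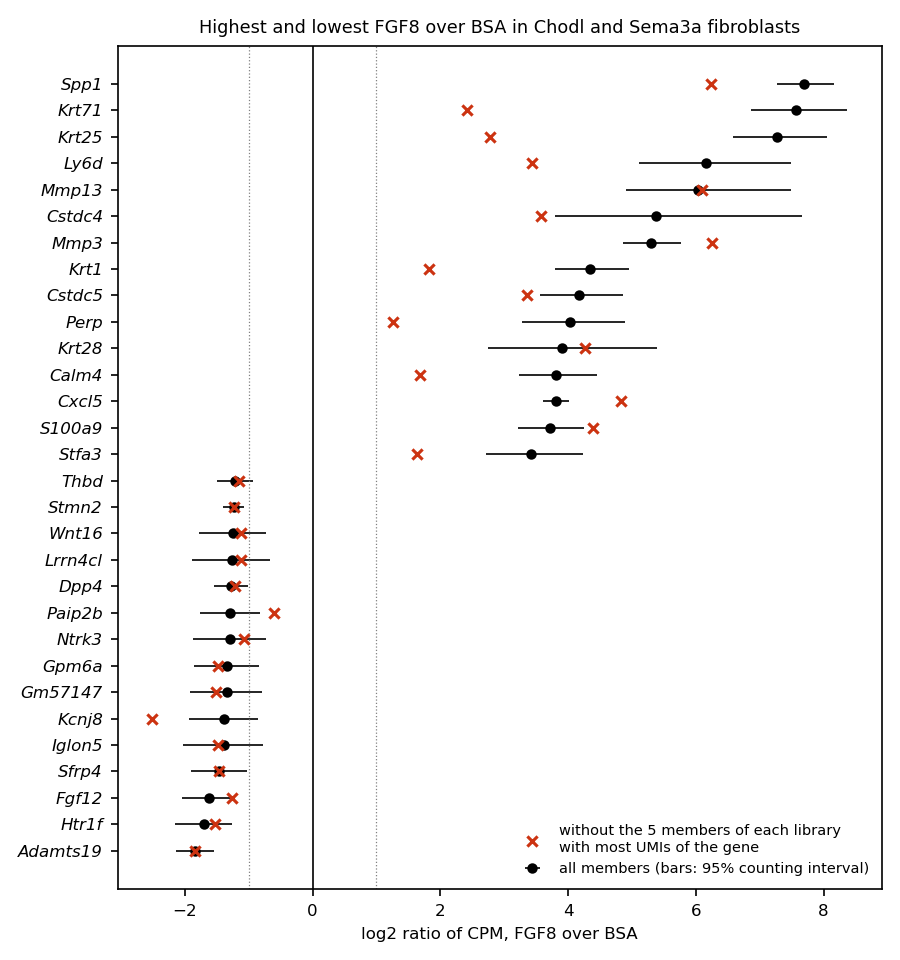
Log2 ratio of CPM, FGF8 over BSA, in members (x axis) for the 15 highest and 15 lowest named genes (y axis), as black points with 95% counting intervals, and as red crosses without the 5 members of each library with most UMIs of the gene. *Krt71* and *Krt25* drop from 7.56 and 7.27 to 2.42 and 2.77 at the crosses, whereas *Mmp3* goes from 5.30 to 6.26. The BSA UMIs left at the crosses were 10, 9 and 14 for these genes.

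Genes of cell division were higher in FGF8 members, and this depended on which members were counted. Of 54 G2/M phase genes, 31 were more than 2-fold higher and 0 lower, with a median of 1.07 (1.52 for female-called members, 1.00 for male-called members), and 5 of 43 S phase genes were higher, with a median of 0.44. *Mki67* was at 47.9 and 101 CPM and *Top2a*, which untangles chromosomes, at 83.2 and 173 CPM. At 5000 UMIs per cell, 26 of 315 BSA members (8.25%, 5.46 to 11.9%) and 101 of 466 FGF8 members (21.7%, 18 to 25.7%) held a UMI of *Mki67* or *Top2a*. The other *Pdgfra*+ cells held them more often in both libraries, in 17.1% and 35.9%.

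The difference was in the members with 2 or more markers of another cell type. Of these, 162 of 186 in BSA and 316 of 353 in FGF8 held 2 or more erythroid markers. Of members with at most 1 marker of each other type, 11.2% (6.4 to 17.8%) in BSA and 12.1% (7.09 to 18.9%) in FGF8 held a UMI of *Mki67* or *Top2a*, whereas of members with 2 or more it was 6.08% and 25.4%. Over the first set alone the median G2/M ratio was -0.23 and the S phase median -0.50. Without the 16 and 49 members at 5% or more of another type's marker level, the shares were 8.28% and 19.2% and the G2/M median 0.94. The marker count moves with depth (a median of 17462 and 12646 UMIs with at most 1 marker, 20661.5 and 15307 with 2 or more), and the part of depth, free RNA and mixed droplets in this result was not tested.

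FGF target genes were higher in part. Of 16 FGF feedback and Ets genes, 4 were more than 2-fold higher and 0 lower, with a median of 0.23 (0.29 in the other *Pdgfra*+ cells). Over the same genes it was 0.12 in female-called and 0.39 in male-called members. Over those with at least 10 UMIs within that sex it was 0.22 and 0.43. Without members holding 2 or more markers of another cell type it was -0.05, over genes with at least 10 UMIs there. *Etv5*, an Ets factor induced by FGF signals, was at 4.36 CPM in BSA and 12.7 CPM in FGF8 (1.54, 0.94 to 2.19), and *Spry4*, an inhibitor of the pathway, at 4.81 and 11 CPM (1.20, 0.60 to 1.83). *Dusp6*, a phosphatase of ERK, was at 9.91 and 15.5 CPM (0.64), and the intervals of *Spry1* (71.6 and 69.6 CPM, -0.22 to 0.14) and *Spry2* (33.8 and 29.8 CPM, -0.45 to 0.09) included 0. The receptor *Fgfr4* was the leading gene with the most negative ratio, at -0.90 (-1.14 to -0.66), and *Fgfr1* was at 302 and 333 CPM (0.14).

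Over all members, the 24 leading genes stayed within 2-fold between the libraries. Of the 24 leading genes, all had a negative log2 ratio of FGF8 over BSA, from -0.90 for *Fgfr4* to -0.04 for *Apcdd1*, and none passed 2-fold. Within the sexes the signs were mixed: 18 were negative among female-called members and 14 among male-called members, and 14 had opposite signs in the sexes. *Slc1a2* was at 0.85 in female-called and -1.27 in male-called members, and *Wnt10a* at -1.52 and 0.76. In all, 1 gene among female-called and 2 among male-called members were more than 2-fold lower and 0 higher. *Rspo4* was at -0.06 (-0.36 to 0.24), *Edn3* at -0.38 (-0.56 to -0.19) and *Tnfrsf19* at -0.30 (-0.45 to -0.15). Of 24 Wnt antagonists, R-spondins and feedback genes, 0 were more than 2-fold higher and 2 lower, with a median of -0.20, and of 10 Wnt ligands 0 were higher and 2 lower, with a median of -0.32 that was 0.27 among male-called members. *Dkk2* (560 and 394 CPM, -0.51) and *Axin2* (83.2 and 57.0 CPM, -0.54) had ratios below 0, and *Lef1* (9.16 and 18 CPM, 0.97) and *Sfrp1* (14.1 and 26.0 CPM, 0.88) ratios above 0. Members with 4 selecting genes, the class nearest to the limit, were 139 of 504 in FGF8 and 59 of 327 in BSA, and the part of this in the small negative ratios was not tested.

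Collagens were lower by fractions of a log2 unit. *Col1a1* was at 17693 CPM in BSA members and 11141 CPM in FGF8 members (-0.67), *Col3a1* at 21402 and 15000 CPM (-0.51), and *Col14a1* at 1346 and 884 CPM (-0.61). The median of 25 collagens was -0.19 and that of 19 basement membrane genes -0.31. In the other *Pdgfra*+ cells the collagen median was -0.57, so the members were not the cells with the larger difference. *Osr2*, the joint gene that was more than 2-fold higher in members than in other cells, was at 231 and 145 CPM (-0.67).

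**Figure D5:**
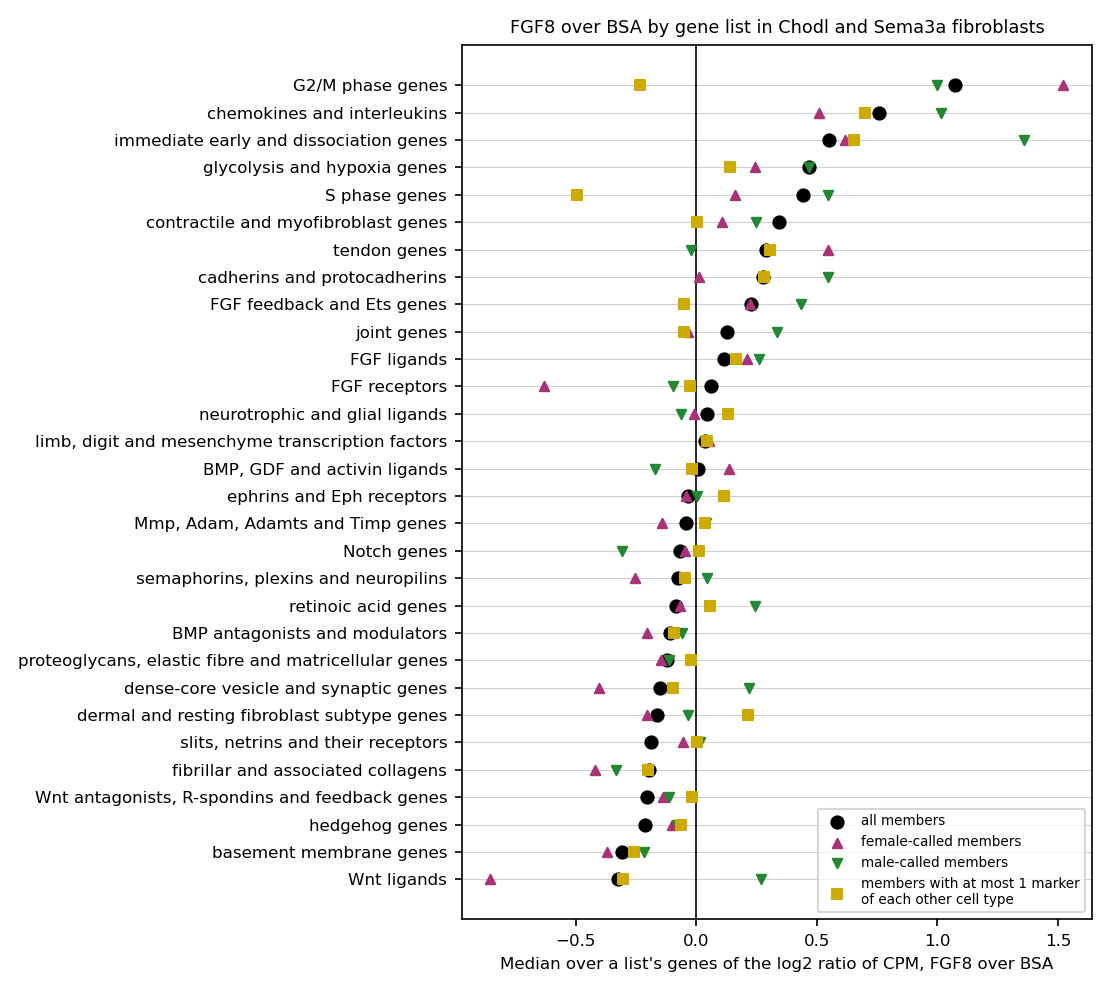
Median log2 ratio of FGF8 over BSA (x axis) for each gene list (y axis) in all members, in female-called and male-called members, and in members with at most 1 marker of each other cell type. Chondrocyte, osteoblast and tenocyte markers were not counted for the last set. Each median is over the list genes with at least 10 UMIs in that set of members. G2/M phase genes (1.07) and chemokines and interleukins (0.76) have the highest medians over all members, and the G2/M median is -0.23 in the last set, where the chemokine median is 0.70.

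*Adamts19*, a secreted metalloproteinase, had the lowest ratio of the 15 genes named on this side. It had 359 UMIs in BSA members and 126 in FGF8 members (53.9 and 15.1 CPM), a log2 ratio of -1.84 (-2.14 to -1.54). Female-called members gave -1.55, male-called members -1.81 and the other *Pdgfra*+ cells -1.89. The highest member held 6.13% and 5.56% of its UMIs, so no single cell carried it. It was found in 27.8% and 13.7% of members. *Dpp4*, a cell surface peptidase of fascia and dermal fibroblasts, was at 50.5 and 20.8 CPM (-1.27, -1.55 to -1.01), and *Thbd* (thrombomodulin) at 44.6 and 19.3 CPM (-1.21, -1.49 to -0.93).

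Genes known from neurons were among the 15 as well. *Stmn2*, a tubulin-binding protein of growing axons, was at 132 and 56.1 CPM (-1.23, -1.40 to -1.07). *Htr1f*, a serotonin receptor, had a ratio of -1.70, *Gpm6a*, a neuronal membrane glycoprotein, -1.34, and *Iglon5*, an adhesion protein, -1.39. *Sfrp4* and *Wnt16* of the Wnt pathway were at -1.46 and -1.25, and *Fgf12*, *Kcnj8*, *Ntrk3*, *Paip2b*, *Lrrn4cl* and *Gm57147* between -1.62 and -1.27. Of the 15 genes, all kept the negative sign among female-called and among male-called members, which was part of how they were chosen. Of these, 9 stayed more than 2-fold lower at 5000 UMIs per cell, with equal weight per cell 10, among female-called members 11, among male-called members 9 and without members holding 2 or more markers of another type 6. *Fgf12* (0.03) and *Ntrk3* (0.49) changed sign without members holding 2 or more markers of another type, and 41.9% of the BSA *Fgf12* UMIs were in 1 cell.

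Of 10 joint genes, 2 were more than 2-fold higher in FGF8 members over all members (*Gdf5* and *Col2a1*), against 6.85% of all genes, and 0 lower. *Gdf5*, a ligand of the early joint interzone, had 4 and 15 UMIs (1.58, -0.07 to 3.63) and was found in 1.22% and 2.58% of members. *Osr1* (66.8 and 68.3 CPM, 0.03), *Erg* (22.1 and 20.5 CPM, -0.11), *Cux1* (-0.17), *Cd44* (0.23), *Has2* (0.40), *Wnt9a* (-0.37) and *Wnt4* (0.53) stayed below 2-fold over all members. *Erg* was at 0.94 (0.43 to 1.44) in female-called and -1.08 (-1.65 to -0.49) in male-called members, and *Cux1* at -0.50 and 0.75, so their pooled values join opposite directions. *Col2a1* was 1.22 higher, with 61.5% of BSA and 37.9% of FGF8 UMIs in 1 cell, and stood at -0.04 without the 5 highest members. *Prg4* itself, capped at 9 UMIs by the rule, was found in 4.28% and 42.5% of members and in 4.35% and 36.0% of mural cells, so its share in FGF8 members was at that of cells of another type.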

How the data were processed

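Cells of 20 digits from 5 mice per condition were captured as 1 library each by 10x 3′ chemistry. The authors counted the reads with Cell Ranger 9.0.0 on a GRCm39 transcriptome and deposited raw UMI counts for each gene in each barcode (3703 barcodes and 67739460 UMIs for BSA, 7249 barcodes and 124889213 UMIs for FGF8), before any filter of the study's methods.

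Cells with more than 200 and fewer than 7500 genes and under 15% mitochondrial UMIs were kept. The members and the gene lists were chosen with earlier results of these data known, and list genes named as examples beyond the 2 highest and 2 lowest were chosen after their values were seen. Of 811 list genes, 803 were matched by symbol to 1 of 33696 rows. UMIs were summed over members, scaled to CPM and compared as log2 ratios with exact conditional 95% intervals. A gene with 0 UMIs in a library entered at 3 counts, as a bound. Genes needed at least 10 UMIs over both libraries (FGF8 over BSA) or in each library (members over other cells). Named genes were first the 24 highest and 12 lowest over the other cells in both libraries. Next came the 15 highest and 15 lowest of FGF8 over BSA with the same sign in both sexes. These ranked genes had at least 100 UMIs in members. The 24 also needed a UMI in at least 10% of members of each library, and the 12 in at least 10% of the other cells. Genes of the rule, those that the study names in fibroblasts and those of the joint were named at any count. One of the 24 highest, and 1 list gene, are not reported here. Thinning drew 5000 UMIs per cell (seed 42). Reference cells of another type had no *Pdgfra* UMI and at least 3 of its markers. Doublets were not removed. Gene positions are from GENCODE on GRCm39 and promoters from RefSeq on GRCm38.p6, which were not converted. Python 3.11.15, numpy 2.4.6, scipy 1.17.1 and pandas 2.3.3 were used, and the phase genes came from Seurat 5.3.0 in R 4.3.3. The ratio computation was tested on simulated counts.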

Additional observations from a re-analysis of the deposited data

Results flagged for a closer look

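Some genes differed between the libraries in opposite directions in female-called and male-called members. Of 587 named and list genes with at least 100 UMIs in members, 30 had opposite signs with both counting intervals away from 0, and 7 of these were past 2-fold in both sexes. The log2 ratio of FGF8 over BSA in female-called and male-called members was -2.14 and 2.25 for *Cntn5*, a contactin, -2.13 and 4.24 for *Ntm*, an adhesion protein of neurons, and -1.76 and 2.43 for *Cdh8*, a cadherin. It was -1.90 and 2.01 for *Comp*, -1.35 and 1.63 for *Ccne2* (cyclin E2), -1.04 and 1.25 for *Foxd1* and -1.02 and 1.27 for the chemokine *Ccl8*. Male-called BSA members were few, with 1 UMI of *Ntm*, 3 of *Cdh8*, 6 of *Ccne2*, 7 of *Comp* and 9 of *Cntn5*, against 39 of *Foxd1*, for which female-called members held 458 and 86 UMIs and male-called members 39 and 339. The difference between the sexes was not tested, since each sex of each condition came from 1 pool.

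Cells without a *Pdgfra* UMI that met the rest of the rule were left out of all comparisons. There were 36 in BSA and 78 in FGF8, with median depths of 10983 and 11182 UMIs against 19207 and 14742.5 UMIs in the members.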

How the results depend on the processing

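Of the shares, counts and marker percents, 46 values stayed within their limits under the alternatives and 24 did not. Members as a share of *Pdgfra*+ cells (20.7% in BSA, 16.0% in FGF8) were 27.0% and 22.8% with 3 of 8 rule genes, 17.0% and 11.6% with 5, 34.2% and 23.4% without the *Tnmd* limit, 10.1% and 7.51% of all kept cells, 11.2% and 8.67% of all kept cells without the *Pdgfra* requirement, 23.8% among male-called BSA cells, 18.9% in FGF8 with the stricter cell filter and 14.6% in FGF8 without barcodes holding another type's markers. The FGF8 share was the lower in each pair of settings run. Genes more than 2-fold higher in FGF8 (1052) numbered 694 at 5000 UMIs, 504 without members with 2 markers of another type and 234 among genes with at least 100 UMIs, and genes lower (418) numbered 686 in female-called members, 40 among genes with at least 100 UMIs and 212 without the 5 highest members of each gene. Genes lower in members than in other cells (824) numbered 1259 with equal weight per cell and 322 with at least 100 UMIs per gene, where 438 were higher (757). The percent of members with 2 markers of another type (56.9% and 70.0%) was 14.6% and 22.3% at 5000 UMIs.

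Changes of sign were counted only for values past 2-fold over all members. The sign turned for *Col2a1* (1.22). Its ratio was -1.64 with the stricter cell filter, -0.30 in female-called members and -0.045 without the 5 highest members. Without members with 2 markers of another type it was -0.48, and without barcodes holding another type's markers -1.49. The sign also turned for *Lrrn4cl* (0.70 at 5000 UMIs). Without members with 2 markers of another type, it turned for *Fgf12* (0.035), *Ntrk3* (0.49) and the G2/M median (-0.23). The cause was not tested. Of the list medians 368 values stayed and 21 others moved. Of the single-gene ratios 767 stayed, 429 moved by more than their limits and the 8 given above changed sign. Values within 2-fold that changed sign, such as *Erg* in female-called members, were counted among those that stayed or moved. The alternatives without the 5 highest members and without barcodes of 2 types were chosen after seeing the data. No paired analysis was possible because each condition was a single library, so none could be left out either. Low counts limit single genes, as for *Mmp10* and *Gdf5*.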
